A study of Drosophila melanogaster with 3 samples.

Results

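The aminoacyl-tRNA synthetase genes of *Drosophila melanogaster* were examined for binding of the CG6163-eGFP fusion protein at their transcript starts. Members were the protein-coding genes of the dm6 annotation whose symbol is the 3-letter code of an amino acid followed by RS, with or without -m, and *GluProRS*. This gave 33 of the 13945 protein-coding genes of the assembled autosomes and X. The 15 with the suffix -m are called mitochondrial here and the 18 without it cytosolic. The rule uses symbols alone, so whether a gene without -m also supplies the mitochondrial enzyme was not examined. The symbols leave out the cytosolic phenylalanine enzyme, whose subunits are encoded by *alpha-PheRS* and *beta-PheRS*.

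The data are chromatin immunoprecipitation sequencing (ChIP-seq) of whole prepupae, the stage between larva and pupa, in 3 biological replicates of 1 group. All animals belonged to the strain CG6163-GFP, in which an insertion targets CG6163, and the precipitation used an antibody to GFP. The exact age within the stage and the sex of the animals are not recorded. Whole animals mix all tissues, so a peak cannot be placed in a cell type, and an untagged or input sample was not analysed here. The peak lists held 7449, 7920 and 5844 thresholded peaks in replicates 1, 2 and 3. The series list named conservative held 10894 peaks and is the main set. The notes deposited with the lists derive it from the alignments of all 3 libraries, so support in a library is not independent of it. A summit is the position of highest signal within a peak. Signal is the authors' own value per peak within a list.

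Aminoacyl-tRNA synthetases join each amino acid to its transfer RNA and so supply the substrates of translation. They fall into class I and class II, which have unrelated catalytic domains. Proteins made in the cytosol and those made from the mitochondrial genome use separate sets of enzymes in part, and the mitochondrial ones are encoded in the nucleus and imported. In humans a single gene encodes both forms of the glycine enzyme, and likewise of the lysine enzyme.

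The peaks with the highest signals, at *GluProRS* and *IleRS*, lay between pairs of genes transcribed away from each other. The sequence around the strongest summit is shown for the 5 members whose window, reaching 90 bp to each side, touched no annotated exon and could be printed. Each run of 181 bases reads 5′ to 3′ on the strand of the synthetase gene with the summit at its centre. Capitals mark matches on either strand to 8 motifs described below, and those shown, in *ThrRS* and *AsnRS*, are matches to the TATA box word TATAAA.
GluProRS (dm6 chr3R:23958466-23958646, minus strand): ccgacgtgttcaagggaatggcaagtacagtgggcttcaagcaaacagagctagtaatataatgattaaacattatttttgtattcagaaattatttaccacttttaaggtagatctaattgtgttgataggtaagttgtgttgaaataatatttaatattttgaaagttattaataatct
IleRS (dm6 chr3L:22288432-22288612, plus strand): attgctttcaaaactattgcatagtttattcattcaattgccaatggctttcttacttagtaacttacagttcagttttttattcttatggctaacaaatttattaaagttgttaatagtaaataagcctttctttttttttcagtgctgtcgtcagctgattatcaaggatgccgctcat
ArgRS-m (dm6 chr3R:7886832-7887012, plus strand): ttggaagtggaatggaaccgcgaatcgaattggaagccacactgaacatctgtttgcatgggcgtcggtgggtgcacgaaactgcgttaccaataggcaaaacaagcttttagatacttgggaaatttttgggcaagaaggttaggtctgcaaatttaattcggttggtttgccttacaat
ThrRS (dm6 chr2L:12103427-12103607, plus strand): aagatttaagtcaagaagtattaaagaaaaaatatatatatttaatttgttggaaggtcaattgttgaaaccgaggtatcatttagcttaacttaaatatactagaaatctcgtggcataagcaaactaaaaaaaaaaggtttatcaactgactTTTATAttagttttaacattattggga
AsnRS (dm6 chr2L:19131985-19132165, minus strand): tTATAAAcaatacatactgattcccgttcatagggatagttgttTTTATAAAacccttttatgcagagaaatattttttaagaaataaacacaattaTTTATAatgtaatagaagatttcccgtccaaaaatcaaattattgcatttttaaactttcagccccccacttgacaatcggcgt
The windows of *ThrRS*, *GluProRS*, *AsnRS* and *IleRS* were 75.1%, 71.3%, 70.7% and 69.6% A/T, and that of *ArgRS-m* was 55.8%. None of the 8 motifs was found in the windows of *GluProRS*, *IleRS* and *ArgRS-m*.

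A summit at a start was found for 12 synthetase genes, and for 4 of them in every library. A conservative summit lay within 500 bp of a start in 12 of 33 members (36.4%, exact binomial 95% interval 20.4 to 54.9), against 24.2% of all protein-coding genes. The interval of the members includes the share of all genes. Among cytosolic members 8 of 18 had a summit (44.4%, interval 21.5 to 69.2), and among mitochondrial members 4 of 15 (26.7%, interval 7.79 to 55.1). These intervals overlap over most of their length, and the difference between the compartments was not tested. Intervals cover counting error only, and genes are not replicates of the animals.

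With the requirement that the peak overlap a thresholded peak in each of the 3 libraries, 4 of 33 members remained (12.1%, interval 3.40 to 28.2). The share of all protein-coding genes under that rule was also 12.1%. The 4 members were *GluProRS*, *IleRS*, *SerRS* and *ArgRS-m*, so 3 of 18 were cytosolic and 1 of 15 mitochondrial. In the libraries' own thresholded lists 7 members had a summit in replicate 1, against 18.9% of all genes (21.2% of members). In replicate 2 there were 8 members (24.2%), against 19.7% of all genes, and in replicate 3 there were 5 (15.2%), against 17.3%. The mean was 6.67 ± 1.53 members (SD, n = 3), of which 4.67 ± 0.577 were cytosolic and 2.00 ± 1.00 mitochondrial.

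Stricter rules lowered the count. Requiring only the pair of libraries left when replicate 1, 2 or 3 was set aside gave 5, 4 and 5 members, against 13.4%, 12.9% and 15.1% of all genes. A q-value limit of 0.05 left 8 members, 5 of them cytosolic, against 19.1%. A window of 200 bp gave 11 members, against 18.4%, and a window of 1000 bp added *HisRS* and *LeuRS-m*, giving 14 against 28.4%.

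**Figure D1:**
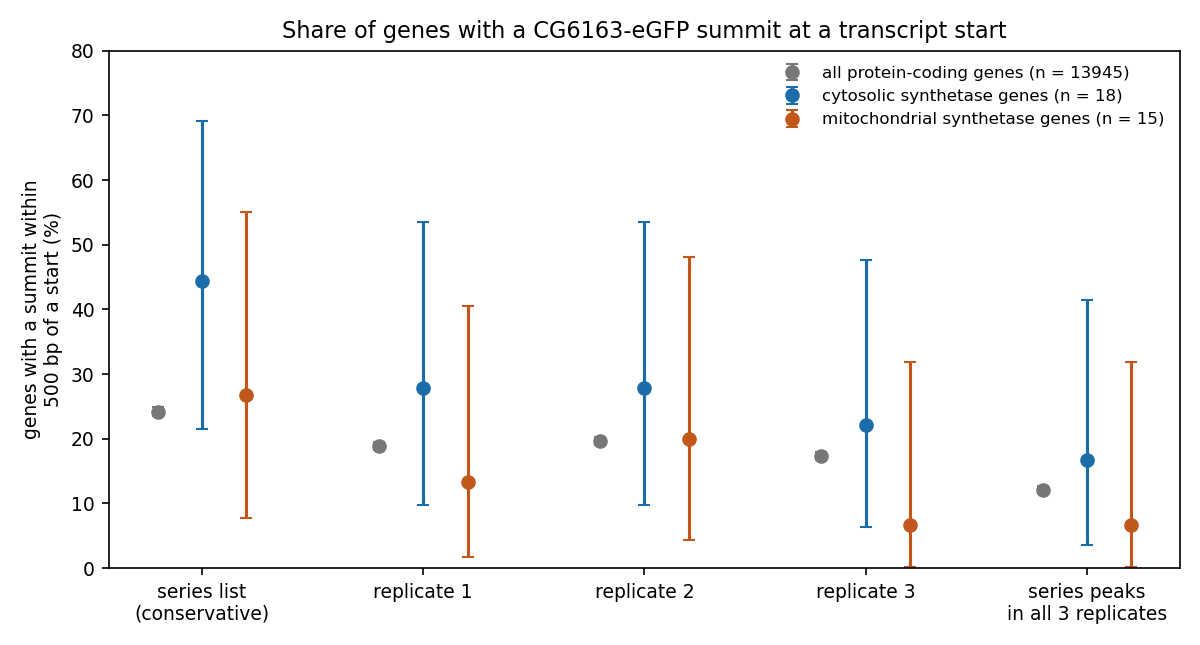
Share of genes with a summit within 500 bp of a start (y axis, %), in the conservative list, in each replicate's own thresholded list and among conservative peaks found in all 3 replicates, with exact binomial 95% intervals as bars. Cytosolic genes (8 of 18 in the series list) lie above all protein-coding genes (24.2%), but every interval of the synthetase genes includes the grey point.

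*GluProRS* and *IleRS* had the strongest peaks of the synthetase genes, found in all 3 libraries. *GluProRS* encodes a fused enzyme that charges the tRNAs of both glutamate and proline. Its peak, at 3R 23958453 to 23958643, had a signal of 537 and rank 711, within the top 6.53% of the list. The replicates' own signals there were 150, 205 and 182, in the top 1.51%, 0.961% and 0.611% of all ranked peaks of replicates 1, 2 and 3. Those ranked lists hold 70608, 74274 and 85335 peaks, including peaks below the threshold. Within the shorter thresholded lists the peak lay in the top 13.9%, 8.8% and 8.74%. All 3 replicates thus placed it among their strong peaks, and their summits lay at −140, −149 and −153 bp from the start, negative being upstream. The series summit lay at −165 bp from *GluProRS* and −95 bp from *AP-1sigma*, a clathrin adaptor subunit gene on the other strand, which therefore had the nearer start.

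*IleRS*, the cytosolic isoleucine enzyme, had its peak at 3L 22288397 to 22288642, with a signal of 431 and rank 1059. The replicates' own signals were 160, 166 and 114, in the top 1.36%, 1.41% and 1.44% of their ranked lists. Within the thresholded lists it lay in the top 12.5%, 12.9% and 20.6%. The ranked lists placed this peak almost alike, and the replicates' summits lay at −130, −140 and −147 bp. The series summit was at −143 bp from *IleRS* and −327 bp from *Hem*, a gene of actin regulation read the other way.

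*SerRS* and *ArgRS-m* were also found in all 3 libraries, with replicate 1 lowest in both. *SerRS*, the cytosolic serine enzyme, had a signal of 302 (rank 1892) at 2L 3037187 to 3037556. Its own signals were 44.9, 133 and 113 in replicates 1, 2 and 3, in the top 9.38%, 2.09% and 1.46% of the ranked lists. Within the thresholded lists it lay in the top 81.2%, 19.1% and 20.8%, among the weaker peaks of replicate 1. The summit lay 31 bp downstream of the start, in an exon of *SerRS*, and was the only strongest summit of a member inside its gene. The start of *CG17260* lay 8 bp upstream on the other strand. *ArgRS-m*, the mitochondrial arginine enzyme, had a signal of 214 (rank 3068) at 3R 7886737 to 7887106. Its own signals were 33.2, 95 and 72.5, in the top 13.9%, 3.46% and 2.96% of the ranked lists, with summits at −124, −90 and −124 bp. Within the thresholded lists it lay in the top 94.0%, 31.6% and 42.1%, near the bottom of that of replicate 1.

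The other 8 members had peaks in 2 libraries, in 1 or in none. *AsnRS* (signal 154, 2L 19131890 to 19132259) overlapped peaks of replicates 2 and 3, with own signals of 59.3 and 41.4. In replicate 1 its ranked peak had a signal of 57.8, in the top 6.64% of that list, but did not pass the authors' threshold. *CysRS-m* (signal 136, 2R 14161190 to 14161559) was found in replicates 1 and 2, with own signals of 39.4 and 59.3, and its ranked signal in replicate 3 was 40.1, below the threshold. In each library *AsnRS* lay in the top 6.90% of the ranked list and *CysRS-m* in the top 11.1%, whether or not the peak passed. Among thresholded peaks alone they ranked lower. *AsnRS* lay in the top 62.3% and 86.4% of replicates 2 and 3, and *CysRS-m* in the top 89.5% and 62.3% of replicates 1 and 2.

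*ThrRS*, the threonine enzyme, had the highest signal of the members found in 1 library, 222 at 2L 12103332 to 12103701. Its series summit lay at −234 bp. Only replicate 2 passed the threshold, with a signal of 76.8 and a summit at −239 bp. The strongest ranked peaks of replicates 1 and 3 had signals of 70.7 and 60.4, in the top 5.01% and 3.84%. Their summits lay elsewhere in the window, at −134 and −143 bp. *ProRS-m* (109, 3L 2651876 to 2652245) was found in replicate 2 only, and *AlaRS* (105, 2L 8381590 to 8381959) in replicate 1 only. The *ValRS* peaks were weak, with a signal of 54.5 at −447 bp (found in no library) and 36.4 at 25 bp downstream (found in replicate 1). *CysRS* (75.3, 2R 16142943 to 16143312) and *PheRS-m* (37.5, 2R 13968096 to 13968465) passed in no library's own list. Their ranked signals, below the threshold, were 24.9, 42.2 and 15.6 for *CysRS* and 27.6, 40.1 and 24.2 for *PheRS-m* in replicates 1, 2 and 3.

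The 12 members carried 16 summits, of which 4 overlapped a thresholded peak in all 3 libraries, 3 in 2, 5 in 1 and 4 in none. All conservative summits at protein-coding starts had support in all 3 libraries in 42.6% of cases and in none in 15.4%, against 25% each for the members. The authors' q-value was above 0.05 for 8 of the 16 member summits (50%), against 30.1% of summits at protein-coding starts. These 8 include the weaker summits of *AsnRS*, *CysRS*, *ThrRS* and *ValRS*, with signals of 27.2, 8.85, 21.1 and 36.4. Counted by gene, 8 of the 12 members and 2660 of the 3371 protein-coding genes kept a summit under the limit of 0.05. The median signal of member summits was 107, against 147. Taking the strongest summit of each gene, the median was 145 for the 12 members and 173 for the 3371 protein-coding genes with a summit. In cytosolic members it was 188 (range 54.5 to 537) and in mitochondrial members 123 (range 37.5 to 214), and these ranges overlap.

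**Figure D2:**
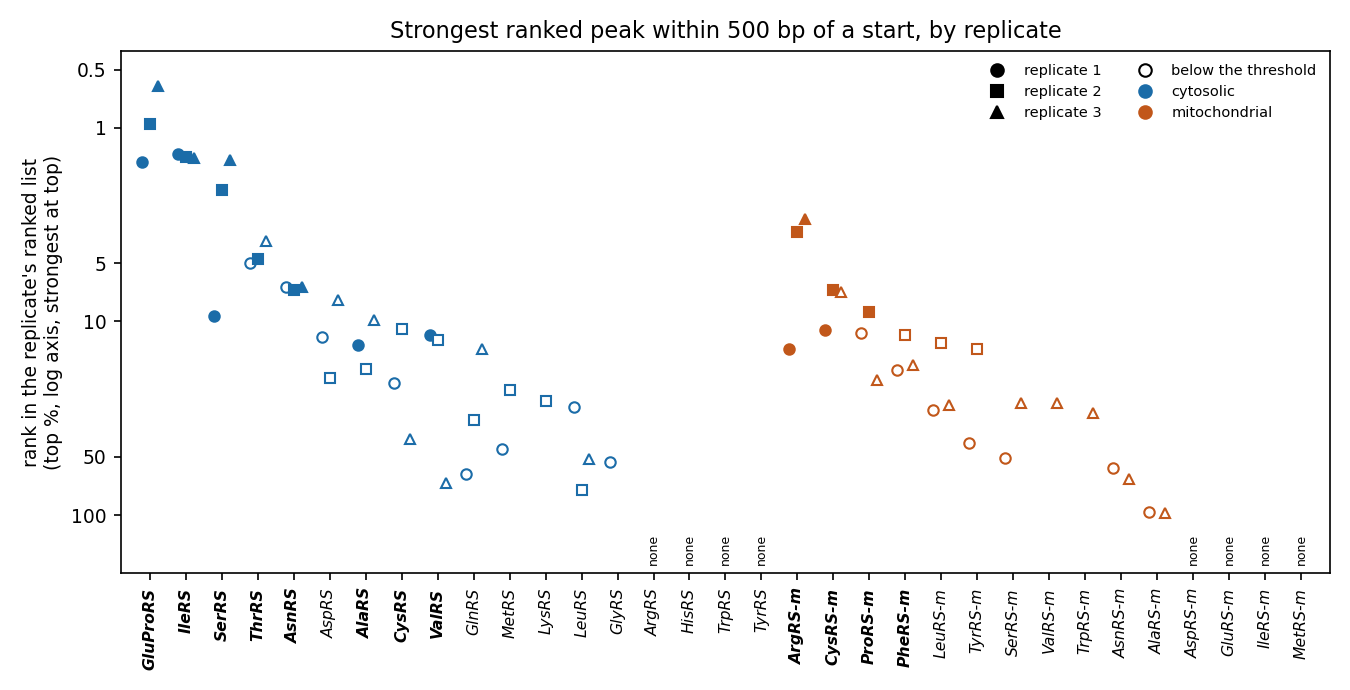
Rank of the strongest ranked peak within 500 bp of a start in each replicate (y axis, top % of that replicate's ranked list, log scale), for all 33 members; filled symbols mark genes with a summit in that replicate's thresholded list, open symbols those without, and bold names have a conservative summit. *GluProRS* and *IleRS* lie in the top 1.51% in all 3 replicates, and 8 members have no ranked peak in any.

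The other 21 members had no conservative summit within 500 bp, and none had a summit in any library's own thresholded list. They were the cytosolic genes *ArgRS*, *AspRS*, *GlnRS*, *GlyRS*, *HisRS*, *LeuRS*, *LysRS*, *MetRS*, *TrpRS* and *TyrRS*, and the mitochondrial genes *AlaRS-m*, *AsnRS-m*, *AspRS-m*, *GluRS-m*, *IleRS-m*, *LeuRS-m*, *MetRS-m*, *SerRS-m*, *TrpRS-m*, *TyrRS-m* and *ValRS-m*. The ranked lists, which also hold peaks below the threshold, had a summit at the start in all 3 replicates for 4 of these genes (19.0%) and in none for 8 (38.1%). Among all protein-coding genes without a conservative summit, 24.5% had one in all 3 replicates and 32.1% in none, so the share of members in all 3 was not above that of other genes. The 4 were *AspRS*, in the top 12.1%, 19.5% and 7.72% of replicates 1, 2 and 3, *GlnRS*, *LeuRS* and *LeuRS-m*. Of the 21 genes *AspRS* ranked highest in replicates 1 and 3, and *LeuRS-m*, in the top 12.9%, in replicate 2.

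Just outside the window, *HisRS* had a summit 524 bp downstream of its start in its own exon, with a signal of 121 and support in no library. *LeuRS-m* had a summit at −864 bp, with a signal of 901 (rank 265) and support in all 3 libraries. That peak, at 3L 4824850 to 4825111, lay in an intron of *Dhc64C*, the dynein heavy chain gene read the other way, whose start is 166 bp from that of *LeuRS-m*. No start of any gene lay within 500 bp of it.

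For 12 amino acids the rule held a cytosolic and a mitochondrial gene with matching symbols. *GluProRS*, which serves glutamate and proline, was left out of these pairs. It had a summit, as did *ProRS-m*, so proline also had one at both genes, while *GluRS-m* had none. Cysteine was the only 1 of the 12 with a summit at both genes, *CysRS* and *CysRS-m*, though those of *CysRS* had support in no library. In 5 pairs (alanine, asparagine, isoleucine, serine and valine) the cytosolic gene alone had a summit, in 1 (arginine) the mitochondrial gene alone, and in 5 (aspartate, leucine, methionine, tryptophan and tyrosine) neither. With support in all 3 libraries required, only *IleRS*, *SerRS* and *ArgRS-m* of the paired genes kept a summit. *ThrRS* was the only 1 of the 5 cytosolic members without a mitochondrial partner in the list, beside *GlnRS*, *GlyRS*, *HisRS* and *LysRS*, that had a summit. By enzyme class, 5 of 18 class I genes and 6 of 14 class II genes had a summit, against 24.2% of all protein-coding genes. *GluProRS* joins an enzyme of each class. The counts are small, and the difference between the classes was not tested.

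Synthetase genes often shared a promoter region with a neighbour read the other way. A head-to-head neighbour was a protein-coding start on the opposite strand 0 to 500 bp upstream of a start. It was present for 21 of 33 members (63.6%), against 27.4% of all protein-coding genes, and for 14 of 18 cytosolic (77.8%) and 7 of 15 mitochondrial members (46.7%). Among all genes, 36.0% of those with such a neighbour and 19.7% of those without had a summit. Among members the values were 8 of 21 (38.1%, interval 18.1 to 61.6) and 4 of 12 (33.3%, interval 9.92 to 65.1). The order of these shares differed between the compartments. Of cytosolic members 5 of 14 with such a neighbour (35.7%, interval 12.8 to 64.9) and 3 of 4 without (75%, interval 19.4 to 99.4) had a summit. *ValRS* was among these 3, though its strongest summit lay nearer to the start of *Kdm4B*, just beyond the limit of 500 bp upstream. Of mitochondrial members the counts were 3 of 7 (42.9%, interval 9.90 to 81.6) and 1 of 8 (12.5%, interval 0.316 to 52.7). The intervals overlap within each compartment, and these differences were not tested. The share of all head-to-head members with a summit was close to that of all head-to-head genes. All 4 members supported in 3 libraries had such a neighbour, and 19.0% of head-to-head members met that rule, against 20.1% of all head-to-head genes.

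**Figure D3:**
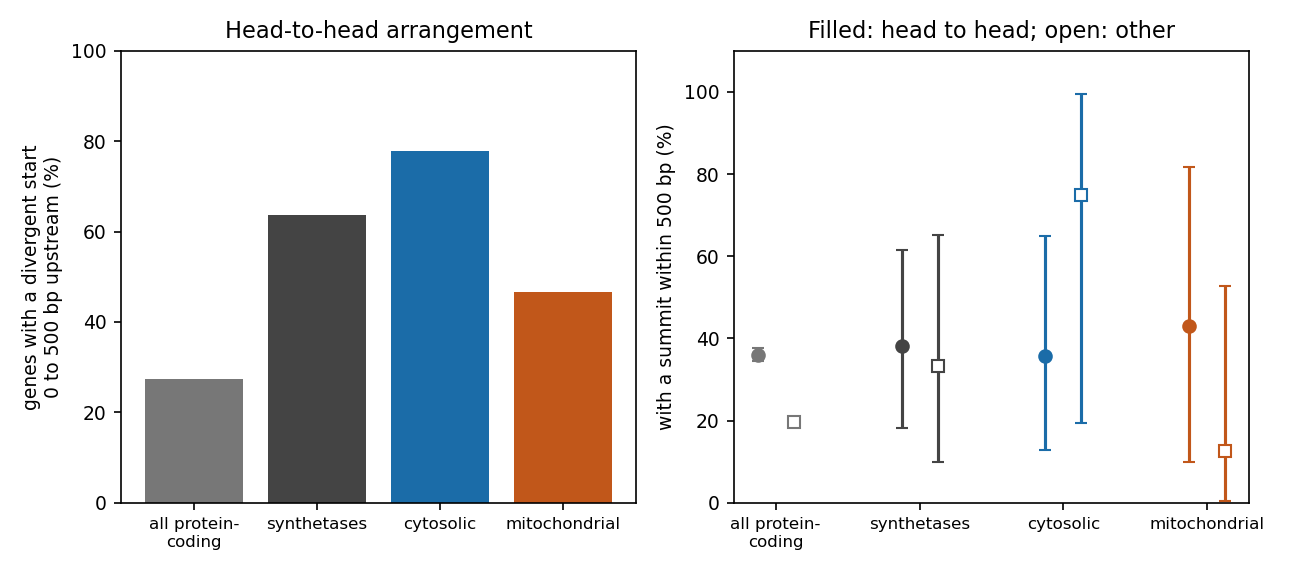
Left, share of genes with a divergent protein-coding start 0 to 500 bp upstream (bars, %); right, share with a conservative summit within 500 bp (y axis, %) for head-to-head genes (filled circles) and other genes (open squares), with exact binomial 95% intervals. Head-to-head members (8 of 21) lie beside all head-to-head genes (36.0%).

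Summits lay mostly upstream of the synthetase starts. The strongest summit was upstream in 11 of 12 members, with a median position of −122 bp, against 73.8% upstream and a median of −100 bp for all genes with a summit. In 5 of the 12 members, *GluProRS*, *CysRS-m*, *ProRS-m*, *ThrRS* and *ValRS*, a neighbour's start was nearer to the strongest series summit than the synthetase start. *CysRS-m* had its summit at −113 bp from its own start and −55 bp from that of *O-fut1*, a fucosyltransferase gene of Notch. The ranked summits of replicates 1, 2 and 3 lay at −70, −107 and −55 bp, with the 2 starts 168 bp apart. Those of replicates 1 and 3 were thus nearer to *CysRS-m*. *ProRS-m* had its summit at −211 bp, and at −27 bp from both *Snup* and *CG42304*. At *ThrRS* the positions were −234 bp and, from *Patsas*, −232 bp. The strongest ranked summits of replicates 1 and 3 lay at −134 and −143 bp, nearer to *ThrRS*, as the starts are 466 bp apart. The strongest *ValRS* summit, at −447 bp from its own start, lay at −66 bp from the start of *Kdm4B*, a histone demethylase gene. When a summit counted only for the gene with the nearest start, 9 of 33 members kept one (27.3%), against 19.7% of all genes. The peak lists cannot tell which gene of such a pair a summit belongs to.

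**Figure D4:**
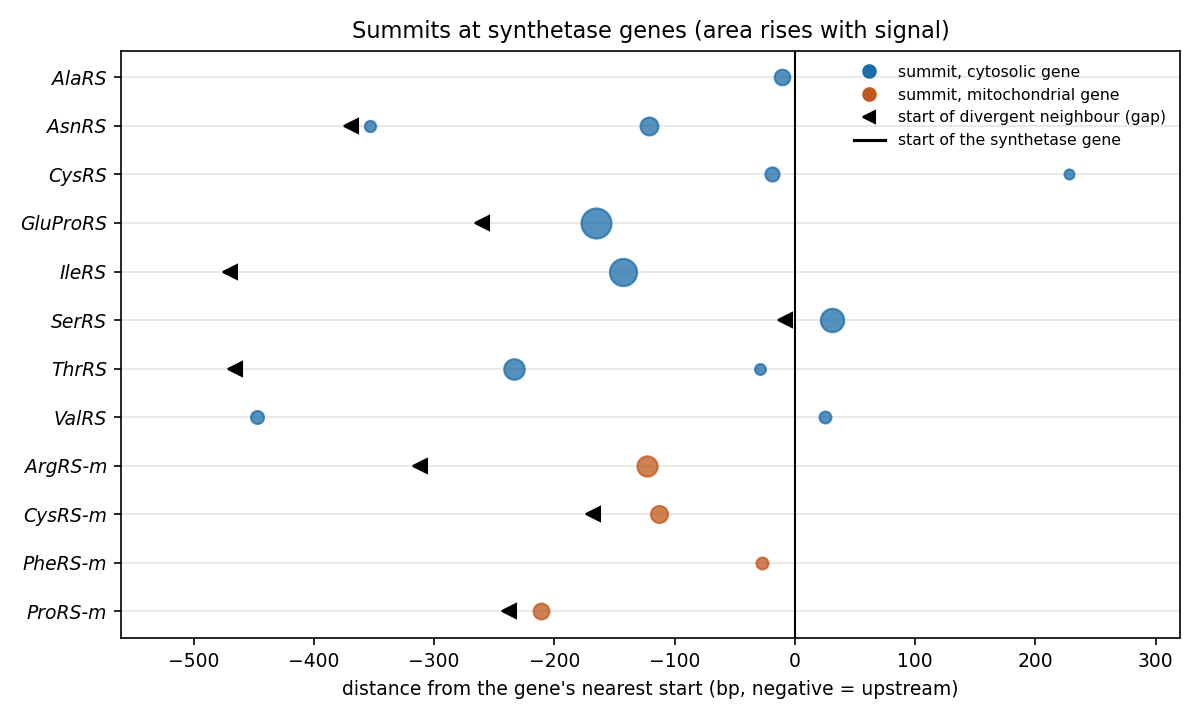
Position of every conservative summit within 500 bp of a start of the 12 members (x axis, bp from the gene's nearest start, negative upstream); circle area rises with the authors' signal, and triangles mark the start of the head-to-head neighbour. In the head-to-head genes other than *SerRS* the summits lie between the starts.

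The word TATCGATA, the DNA replication-related element (DRE) bound by Dref and BEAF-32, occurred in some synthetase promoters. Promoters here reach from 250 bp before to 50 bp after the 5′-most start. The DRE was present in 5 of 33 members (15.2%, on either strand), against 9.36% of all promoters of this length, in 3 genes with a summit and 2 without. It lay within 50 bp of 3 of the 16 member summits (18.8%), against 1.84% of summits at protein-coding starts. These 3 summits belonged to *AlaRS*, *AsnRS* and *PheRS-m*, and none of them was supported in all 3 libraries. Each had a q-value above 0.05, and the difference from other summits was not tested. The 5 matches that could be printed are shown with 10 bases to each side, on the strand of the synthetase gene and with the DRE in capitals, since their distance to the summit differs between genes.
AlaRS (dm6 2L): tctctaaatcTATCGATAtctcatccag
AsnRS (dm6 2L): aatttatattTATCGATAataaatgagg
IleRS (dm6 3L): cggaacctacTATCGATAtcgcgaaccc
ArgRS (dm6 X): ctgttatcgtTATCGATAggcgacgtgt
TrpRS (dm6 3R): tatttctcatTATCGATAtttttaacag
At *AlaRS* the match lay at −15 bp from the start and −4 bp from the summit. At *AsnRS* it lay at −31 bp from the weaker of its 2 summits (signal 27.2) and 15 bp from the start of the neighbour *DCTN6-p27*, a dynactin subunit gene. At *IleRS* it lay at −39 bp from the start and 104 bp from the summit. *ArgRS* and *TrpRS* held a match at −30 and −68 bp from their starts without a summit. The match of *TrpRS* lay nearer to the start of its neighbour *Vps16A*, at 47 bp.

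The other 7 words searched showed the following counts in member promoters, on both strands, and none of the 8 words lies inside another. The TATA box word TATAAA was present in 18 of 33 (54.5%, against 45.8% of all promoters), GAGAG in 6 (18.2% against 29.7%) and the GATA word AGATAA in 5 (15.2% against 18.7%). Matches counted at any position in the promoter, and the place of TATAAA relative to the start was not examined. The core of Ohler motif 1, GGTCACAC, was present in 4 (12.1% against 7.70%), the core of Ohler motif 7, CATCNCTA, in 2 (6.06% against 6.42%) and the E-box CACGTG in 2 (6.06% against 4.2%). The amino acid response element TTGCATCA, a word bound by ATF4 in mammals, was in none of the 33, and in 0.817% of all promoters. At the member summits TATAAA was in 5 of 16 windows (31.2%, against 13.6% at protein-coding starts), and GAGAG in none (19.8%). The member windows were more A/T-rich, with a median of 66.8% against 57.4% at protein-coding starts, and the part of base composition in the TATAAA count was not tested.

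The other genes of tRNA charging and translation are given by function. Of the multi-synthetase complex scaffolds *AIMP1*, *AIMP2* and *AIMP3* and the proofreading gene *Dtd*, none of 4 had a conservative summit, and neither did *alpha-PheRS* nor *beta-PheRS*. *Slimp*, which encodes a serine synthetase-like protein of mitochondria, had one at −155 bp (signal 133, in 1 library). Of the 3 subunit genes of the mitochondrial glutaminyl-tRNA amidotransferase, *GatA* had a summit (444, 3 libraries). Cytosolic initiation factors had summits at 8 of 32 genes (25%, interval 11.5 to 43.4), against 24.2% of all genes, led by *eIF6* (2250), *eIF3h* (454) and *eIF1* (366), each found in 3 libraries. Elongation and release factors had 4 of 9 (44.4%, interval 13.7 to 78.8), led by *eEF1gamma* (609) and *eEF1alpha1* (408). Mitochondrial translation factors had 1 of 8 (12.5%, interval 0.316 to 52.7), *mIF2* (231, 3 libraries). Of 4 genes of the response to uncharged tRNA, *Thor*, the 4E-BP translation inhibitor, and *crc*, the fly ATF4, had summits. That of *Thor* lay at 39 bp (173, 3 libraries) and that of *crc* at −480 bp (104, 1 library). The kinase gene *Gcn2* and *PPP1R15* had none. The interval of every list in this paragraph includes the 24.2% of all genes.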

How the data were processed

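Per the labels, ChIP-seq with an antibody to GFP was made on 3 biological replicates, with chromatin sonicated to 200 to 800 bp. The characteristics field names CG6163 as the antibody, and the description names anti-GFP. The authors deposited peak lists on dm6 that were filtered by IDR (irreproducible discovery rate), a measure of how well ranks repeat between lists. The score per peak deposited by the authors ran from 830 to 1000, and the signal per peak deposited by the authors has no stated scale. The −log10 values deposited by the authors, of the q-value and the IDR, served as filters. For the aligner, the peak caller and the pairs of lists compared by IDR, nothing is stated in the sources used here. Read depth was not used, so depth is given as peaks per list. In the ranked lists 56 columns, with values of each compared set, were left unused.

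Genes and starts came from Ensembl release 115 on dm6 without transposable elements, and sequence from the RefSeq genome of the same assembly, read at the Ensembl starts. A gene had a summit when 1 lay within 500 bp of any start. Support in a library meant an overlap of 1 bp with its thresholded list. Members and lists were chosen with earlier results of these data known, so counts stand beside all protein-coding genes and no test was made. Of each other list up to 3 genes with a summit are named, by signal. *eIF5A* is the same gene as *eEF5*, and *mEFG2* matched no symbol. Intervals are exact binomial (Clopper-Pearson). The functions were tested on simulated data with planted summits and motifs. Computation used Python 3.11.15 with pandas 2.3.3, NumPy 2.4.6 and SciPy 1.17.1, and figures used matplotlib 3.10.9.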

Additional observations from a re-analysis of the deposited data

How the results depend on the processing

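The number of members with a summit was 12 in the main setting (8 cytosolic, 4 mitochondrial; 24.2% of all protein-coding genes). It was 11 with a window of 200 bp (18.4% of all genes), 14 with 1000 bp (28.4%), 13 when the peak interval had to overlap the window (25.9%), 12 with the 5′-most start alone (21.1%) and 12 on the series list of 12445 peaks (26.8%). The series lists of 8933 and 9110 peaks gave 10 and 9 members, with 2 mitochondrial in each (21.2% and 21.5%). Neither list had a summit at *CysRS*, *PheRS-m* or *ProRS-m*. That of 8933 peaks had one at *AspRS*, which had none in the main setting. With the nearest start alone there were 9 members, 2 of them mitochondrial (19.7%).

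Stricter rules left fewer members. The libraries' own lists gave 7, 8 and 5 members in replicates 1, 2 and 3 (18.9%, 19.7% and 17.3% of all genes), with 5, 5 and 4 cytosolic and 2, 3 and 1 mitochondrial. An IDR limit of 0.001 left 7 members, 5 cytosolic and 2 mitochondrial (16.9%), and a q limit of 0.05 left 8, of which 5 were cytosolic (19.1%). Requiring all 3 libraries left 4 members, 3 cytosolic and 1 mitochondrial (12.1%). When each replicate was left out in turn and support in both others was required, 4 to 5 members remained, 3 to 4 cytosolic and 1 to 2 mitochondrial, against 12.9% to 15.1% of all genes. Without replicate 2 the 4 members were those found in all 3 libraries, without replicate 1 *AsnRS* was added, and without replicate 3 *CysRS-m*. The cause of these losses was not tested.

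Of the 16 member summits, 4 had support in all 3 libraries under each of the 3 support rules, and those in none rose from 4 to 6 when 50% of the shorter peak or a library summit within 150 bp was required. No paired analysis was possible because the 3 replicates form 1 group with no contrast. With 33 genes the interval of the share with a summit ran from 20.4% to 54.9%, which includes the share of all genes. The difference between compartments was not tested.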

Other observations

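Members with several annotated starts are given apart from those with 1 start. A summit was present at 5 of 9 members with 2 or more starts (55.6%) and at 7 of 24 with 1 start (29.2%), against 44.0% and 17.0% of all protein-coding genes. On the chromosome arms, 4 of 6 members on 2L, 4 of 8 on 2R, 2 of 10 on 3L, 2 of 6 on 3R and none of 3 on X had a summit, while among all genes the share was 22.7% to 26.5% on these arms.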
